A study of Mus musculus with 2 samples.

Results

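The genes described here are 10 transcription factors that set or maintain the fate of rod and cone photoreceptors: Crx, Nrl, Nr2e3, Otx2, Rorb, Prdm1, Rxrg, Thrb, Mef2c and Mef2d. They were taken as a list of names with no cut on their values. The list was drawn up with earlier results of these data known. All 10 were found among the 31253 genes of the RNA sequencing table and among the 13780 that reached 1 FPKM in at least 1 library. The comparison was between 2 libraries of C57BL/6 mouse RNA, 1 per group. The first came from mouse neural retinal progenitor cells (mNRPCs), which the study isolated from adult retina and expanded in a supplemented basal medium that held bFGF, a fibroblast growth factor, and CHIR99021, which blocks the kinase GSK3, up to passage 24. The second came from retina tissue, for which the labels give no age, no treatment and no number of animals, and neither library is tied to more than 1 culture or tissue sample. The question put to the genes was how far the factors of photoreceptor fate were still expressed in the cultured cells.

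Photoreceptors are born from dividing progenitors when the homeodomain factor Otx2 comes on in cells leaving the cell cycle, and Otx2 then activates its relative Crx, which drives most genes of the light response. A newborn photoreceptor becomes a rod when Nrl is expressed, and Nrl turns on Nr2e3, which holds down cone genes. Without Nrl the cell takes a cone fate, in which the nuclear receptors Thrb and Rxrg help to choose the opsin. Prdm1 keeps newborn photoreceptors from turning into bipolar cells, Rorb acts before Nrl, and Mef2 proteins work beside Crx at photoreceptor genes.

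Values are FPKM, fragments normalised to transcript length and library size, summed over the RefSeq transcripts of a gene. The log2 ratio compares mNRPC FPKM + 1 with retina FPKM + 1, so that changes of weakly expressed genes come out too small, and a gene was counted as lower or higher when this ratio was at least 1 in size (2-fold). The depth was estimated from the values as 6.52e+06 fragments in the mNRPC library and 5.06e+06 in the retina library, so that 3 fragments of a 2000 bp transcript were worth 0.230 and 0.297 FPKM. Intervals and ± values cover the counting error of these estimated fragments only, at 95% for intervals and 1 standard error for ±. With 1 library per group no difference has a replicate check and no p-value is given. In bulk RNA, fewer cells of a type and less RNA per cell cannot be told apart.

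In the mNRPC library 9 of the 10 factors were at least 2-fold lower than in retina, 0 were higher, and Prdm1 lay within 2-fold. Of all compared genes 30% were lower by this rule and 24.5% were higher. The lower genes numbered 4130 as deposited, 6349 after scaling to a common sum and 6830 when that sum left out rod and cone genes, and all 10 factors were lower in both of these. The median log2 ratio of the factors was −4.23, against −0.12 for all compared genes. The factors summed to 17.0 FPKM in mNRPCs and to 1925 FPKM in retina, so that the cultured cells held 0.883% of the retina sum. Mef2d alone gave 13.6 FPKM of the mNRPC sum, and at the median factor the mNRPC level was 0.283% of that in retina. All 10 reached 1 FPKM in retina, and 2 of them, Mef2d and Prdm1, did so in mNRPCs. The remaining factors passed the filter through retina alone and could not have been called higher. The calls of Mef2c and Mef2d depended on which transcripts were summed, and that of Prdm1 on several settings, as given with each gene. In mNRPCs 5 factors (Crx, Nr2e3, Otx2, Rxrg and Thrb) were at or under 3 estimated fragments, a level that this depth does not separate from 0.

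**Figure D1:**
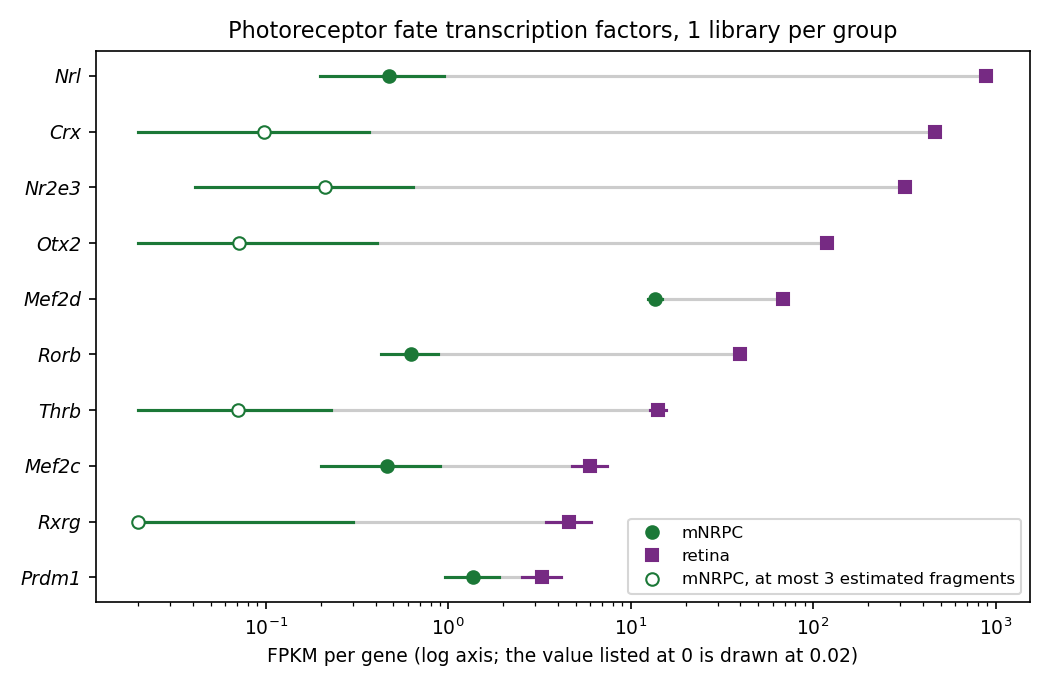
FPKM of the 10 factors in the mNRPC library (circles, open where at most 3 fragments were estimated) and in the retina library (squares) on a log axis, with 95% counting intervals as coloured lines, genes ordered by their retina level. The retina values run from 3.28 FPKM for Prdm1 to 885 FPKM for Nrl, whereas Mef2d at 13.6 FPKM and Prdm1 at 1.37 FPKM are the only circles above 1 FPKM.

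The order of the levels differed between the libraries. In retina Nrl was highest, followed by Crx, Nr2e3, Otx2, Mef2d, Rorb, Thrb, Mef2c, Rxrg and Prdm1, and only the neighbouring pairs Mef2c with Rxrg and Rxrg with Prdm1, 2 of 9, had overlapping counting intervals. In mNRPCs the order was Mef2d, Prdm1, Rorb, Nrl, Mef2c, Nr2e3, Crx, Otx2, Thrb and Rxrg, and 7 of 9 neighbouring pairs overlapped, that is every pair from Rorb with Nrl downwards. Nrl was above 99.8% of the compared genes in retina and above 16.4% of them in mNRPCs. Mef2d, by contrast, was above 92.9% of genes in retina and still above 61.0% in mNRPCs.

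The homeodomain factors Otx2 and Crx stand at the head of the photoreceptor programme. Otx2 is also expressed in bipolar cells and in the pigment epithelium. Its gene lies on the minus strand of chromosome 14 (chr14:48656781-48667644, RefSeq, GRCm38.p6), and it reached 0.0713 FPKM in mNRPCs, or 0.963 estimated fragments, against 119 FPKM in retina. The mNRPC level was 0.0599% of the retina level (counting interval 0.00134% to 0.343%), with a log2 ratio of −6.81 ± 0.11. Crx, the cone-rod homeobox gene (chr7:15865947-15879955, minus strand), was at 0.0977 FPKM in mNRPCs, from 1.86 estimated fragments, and at 467 FPKM in retina. This was 0.0209% of the retina level (0.00224% to 0.0789%). The estimate was the lowest share of the factors listed above 0 in mNRPCs, but its interval overlapped those of Nrl, Nr2e3 and Otx2. Of the compared genes, 15 had a lower log2 ratio than the −8.74 ± 0.096 of Crx. Of its 2 RefSeq transcripts, the one that starts upstream carried 92.6% of the Crx FPKM in retina. Otx1, the remaining mouse gene of the Otx family, was at 0.163 FPKM in mNRPCs, from 2.97 fragments, and was listed at 0 in retina. No member of the family thus passed 3 fragments in the cultured cells.

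CRX and OTX2 proteins bind DNA at the core TAATCC, and Crx is known to act on its own gene. The bases before the Crx and Otx2 start sites are shown because these are the 2 homeodomain genes of the list (RefSeq, GRCm38.p6, minus strand of the chromosome, 5′ to 3′, exon bases left out, matches to TAATCC on either strand in capitals). The Crx stretch is chr7:15879969-15880205 and the Otx2 stretch, before the most upstream start, is chr14:48667645-48667894.
Crx: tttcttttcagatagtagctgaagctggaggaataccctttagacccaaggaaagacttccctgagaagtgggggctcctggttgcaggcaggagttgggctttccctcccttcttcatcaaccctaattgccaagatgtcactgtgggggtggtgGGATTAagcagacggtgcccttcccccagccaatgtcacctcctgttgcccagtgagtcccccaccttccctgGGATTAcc
Otx2: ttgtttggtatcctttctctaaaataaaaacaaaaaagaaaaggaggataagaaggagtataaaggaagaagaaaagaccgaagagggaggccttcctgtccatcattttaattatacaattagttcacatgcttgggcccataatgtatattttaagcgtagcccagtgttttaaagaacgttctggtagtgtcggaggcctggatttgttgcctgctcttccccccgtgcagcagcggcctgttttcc
Crx held 2 matches, both on the reverse strand, with their first bases at −94 and −21 from its start site. This Otx2 stretch held none, and the window of another Otx2 start site, at base 48665109, held 1 match. Of 32851 promoter windows of 300 bases, from 250 before to 50 after a start site, 7.06% held TAATCC on either strand, as did 3 of the 18 windows of the 10 factors (1 each of Crx, Otx2 and Thrb). A match of letters is not a bound site, and the data hold no binding measurement.

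Nrl and Nr2e3 form the rod branch. Nrl, a leucine zipper protein of the large Maf family (chr14:55518978-55524981, minus strand), was at 0.472 FPKM in mNRPCs, from 7.63 fragments, and at 885 FPKM in retina. The mNRPC level was 0.0533% of that in retina (0.0225% to 0.107%). The log2 ratio of −9.23 ± 0.17 was the lowest of the 10 factors as deposited, and 9 compared genes had a lower one. The place of Nrl below Crx depended on the processing. Crx was lower when only 0.1 FPKM was added to each value (−11.21 against −10.60 for Nrl). It was also lower with the highest transcript of each gene in place of the sum (−8.65 against −7.92). Nr2e3 was below Nrl in that setting too (−8.03). Under the remaining settings Nrl stayed the lowest. Nr2e3, an orphan nuclear receptor of rods (chr9:59942771-59960834, minus strand), was at 0.212 FPKM in mNRPCs, from 2.82 fragments, and at 318 FPKM in retina, with a log2 ratio of −8.04 ± 0.15. Its mNRPC level was 0.0667% of the retina level (0.0128% to 0.201%). The shares of Crx, Nrl, Nr2e3 and Otx2 had overlapping counting intervals, so that their order among themselves was not resolved at this depth. A single curated transcript held 98.8% of the Nr2e3 FPKM in retina and 98.5% in mNRPCs, whereas the Nrl value was divided among 5 transcripts, with at most 29.6% in any of them in retina.

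Compared with its relatives Maf and Mafa, Nrl was the highest in retina and the lowest in mNRPCs. Maf, a leucine zipper factor best known from lens and lymphoid cells, was at 24.4 FPKM in mNRPCs and at 3.52 FPKM in retina, a log2 ratio of 2.49 ± 0.11. Mafa, known from pancreatic beta cells, was at 0.925 and 0.930 FPKM. Of the FPKM of these 3 genes, Nrl held 99.5% in retina and 1.83% in mNRPCs, and Maf held 0.396% and 94.6%. Nr2e1, the progenitor receptor that is the closest relative of Nr2e3, had 3.94 FPKM in retina and was listed at 0 in mNRPCs.

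The bases before the start of the curated Nr2e3 transcript, which lies inside the annotated gene, are shown because that transcript holds nearly all of the Nr2e3 FPKM (chr9:59950118-59950329, minus strand, GRCm38.p6, 5′ to 3′, exon bases left out). It was searched for TAATCC, for TGCTGA (the core of large Maf sites), for AGGTCA (the core of nuclear receptor sites), for CTA and TAG set 4 bases apart (MEF2) and for GTGAAAG (PRDM1).
Nr2e3: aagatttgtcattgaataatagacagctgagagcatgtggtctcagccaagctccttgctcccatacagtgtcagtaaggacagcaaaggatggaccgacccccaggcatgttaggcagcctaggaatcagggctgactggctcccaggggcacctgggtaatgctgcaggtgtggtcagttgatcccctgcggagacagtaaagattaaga
No letters are in capitals because none of these 5 motifs was in this stretch on either strand, which says nothing about the factors themselves. For Nrl the promoter table held a window for 1 internal start site, at base 55524252, whose upstream bases lie wholly in annotated exons and are not printed.

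Rorb, a nuclear receptor that acts upstream of Nrl in rods and is also used in amacrine and horizontal cells, lies on chromosome 19 (chr19:18930609-19111196, minus strand). It was at 0.627 FPKM in mNRPCs, from 32.0 fragments, and at 39.7 FPKM in retina. At 1.58% of the retina level (1.07% to 2.24%) and a log2 ratio of −4.64 ± 0.11 it kept a larger share than Crx, Nrl, Nr2e3 or Otx2, with no overlap of the counting intervals. The transcripts of Rorb start at 2 places, and these differed between the libraries. The 2 transcripts from the downstream start, at base 19001117, held 90.0% of the Rorb FPKM in retina (35.7 FPKM) and 44.5% in mNRPCs (0.279 FPKM, 10.9 fragments). The transcript from the upstream start, at base 19111196, held 10% in retina (3.97 FPKM) and 55.5% in mNRPCs (0.348 FPKM, 21.1 fragments). The downstream form was at 0.780% of its retina level (0.387% to 1.40%) and the upstream form at 8.77% (5.31% to 13.8%), intervals that do not overlap. Reads that fit several transcripts were divided by estimation, an error that these intervals do not include.

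The 2 Rorb starts are shown because the libraries used them in different proportions (GRCm38.p6, minus strand, 5′ to 3′, 250 bases before each start, matches to the 5 motifs in capitals). The upstream stretch is chr19:19111197-19111446 and the downstream stretch is chr19:19001118-19001367.
Rorb upstream start: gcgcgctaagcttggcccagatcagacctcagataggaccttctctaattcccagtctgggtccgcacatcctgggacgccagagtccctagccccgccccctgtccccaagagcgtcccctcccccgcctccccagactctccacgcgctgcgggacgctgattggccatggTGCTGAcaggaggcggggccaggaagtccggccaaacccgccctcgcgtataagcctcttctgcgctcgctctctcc
Rorb downstream start: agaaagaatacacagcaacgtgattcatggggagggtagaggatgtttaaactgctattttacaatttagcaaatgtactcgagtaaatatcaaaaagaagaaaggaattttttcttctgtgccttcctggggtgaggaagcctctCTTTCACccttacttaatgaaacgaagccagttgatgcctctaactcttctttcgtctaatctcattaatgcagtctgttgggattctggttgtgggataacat
The upstream stretch is 66.0% G and C and held TGCTGA from base −77 on. The downstream stretch is 39.2% G and C and held CTTTCAC, the reverse complement of the PRDM1 motif GTGAAAG, from base −104 on. Among all promoter windows 19.5% held TGCTGA and 4.24% held GTGAAAG on either strand, against 5 and 2 of the 18 windows of the factors. AGGTCA was in 16.3% of all windows and in 4 of the 18, and the MEF2 motif in 3.69% and in 0 of the 18.

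**Figure D2:**
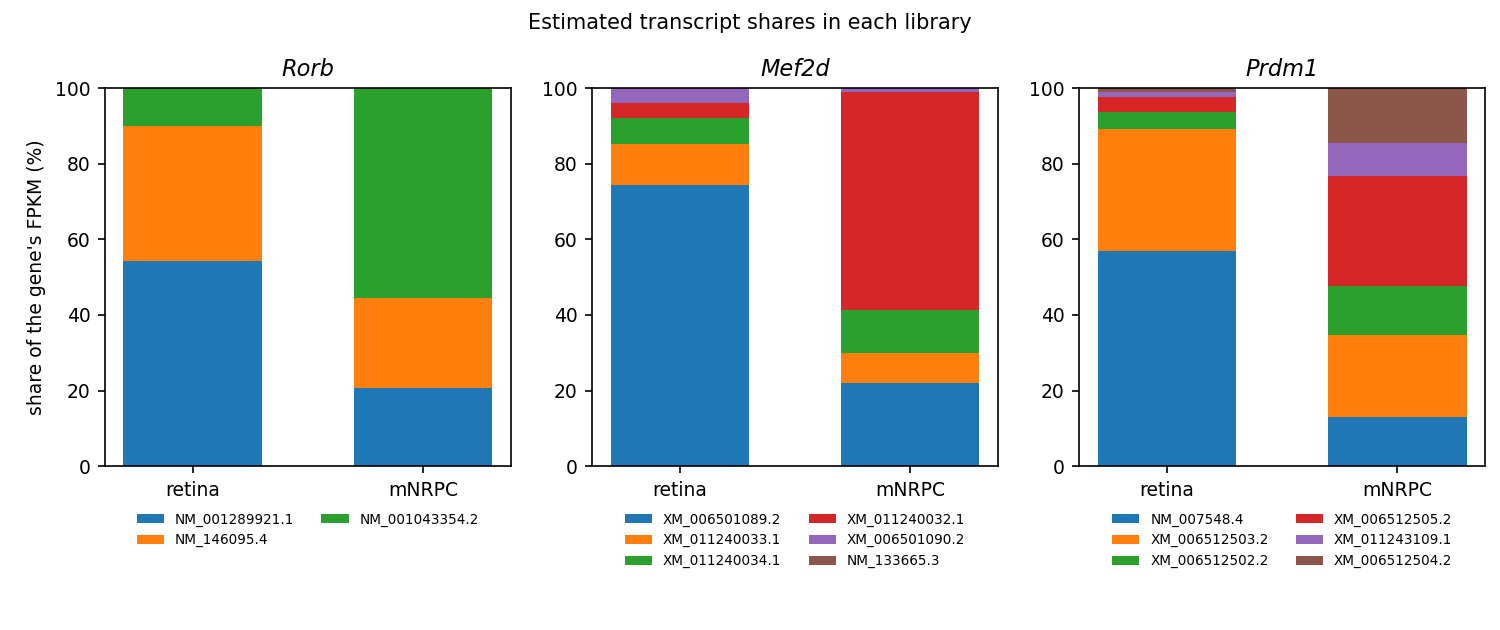
Estimated share of each RefSeq transcript in the FPKM of its gene, in percent, for the mNRPC and the retina library, with 1 panel for each of the genes drawn and 1 colour for each transcript. The upstream Rorb form makes up 55.5% of the gene in mNRPCs and 10% in retina, and a predicted Mef2d transcript makes up 57.7% and 4.21%.

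Rora, a relative of Rorb that acts in cones and in cerebellar Purkinje cells, was lower too. It was at 1.09 FPKM in mNRPCs and at 26.2 FPKM in retina, a log2 ratio of −3.70 ± 0.13. Of the FPKM of these 2 genes, Rorb held 60.2% in retina and 36.4% in mNRPCs.

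Prdm1, also called Blimp1, is a zinc finger repressor that is transient in newborn photoreceptors and is also known from plasma cells and germ cells. Its gene (chr10:44437174-44528558, minus strand) had the lowest retina level of the 10. It was at 1.37 FPKM in mNRPCs, from 35.9 fragments, and at 3.28 FPKM in retina, from 66.8 fragments. The mNRPC level was 41.6% of that in retina (27.0% to 63.4%), and 4543 of the compared genes had a log2 ratio lower than its −0.86 ± 0.19. Prdm1 was the only factor within 2-fold, and it was past that line in 6 of 9 alternatives. These were a pseudocount of 0.5 (−1.02) or 0.1 (−1.21), a common sum (−1.42), a common sum without rod and cone genes (−1.54), curated transcripts only (−1.28) and the highest transcript of the gene (−1.28). The curated Prdm1 transcript was at 0.178 FPKM in mNRPCs and at 1.87 FPKM in retina, 9.54% of its retina level (2.79% to 24.9%), and held 13.0% and 56.9% of the gene. The remaining 5 transcripts, all computational predictions, summed to 1.19 and 1.41 FPKM, 84.1% of the retina level (49.0% to 145%), and 4 of them were listed higher in mNRPCs.

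Rxrg and Thrb are the ligand-regulated receptors of cones. Rxrg, the retinoid X receptor gamma (chr1:167598362-167639623, plus strand), was listed at 0 in mNRPCs, against 4.61 FPKM in retina from 49.2 fragments. In mNRPCs 3 fragments of Rxrg would be worth 0.246 FPKM, the 95% upper counting limit was 0.302 FPKM, and the counting interval of the ratio, which also takes in the retina count, ended at 6.04% of the retina level. Thrb, the thyroid hormone receptor beta, which is needed in cones for the medium-wavelength opsin (chr14:17659225-18040097, plus strand), was at 0.0707 FPKM in mNRPCs, from 2.47 fragments, and at 14.1 FPKM in retina. This was 0.50% of the retina level (0.0817% to 1.62%), with a log2 ratio of −3.82 ± 0.092. The Thrb value was spread over 16 transcripts, of which 8 were listed at 0 in mNRPCs.

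The widely expressed relatives of these receptors were present in both libraries. Rxrb was at 17.9 FPKM in mNRPCs and 26.9 FPKM in retina (log2 ratio −0.56 ± 0.11), and Rxra was at 2.40 and 1.799 FPKM (0.28 ± 0.23). Both lay within 2-fold as deposited, and their signs depended on the processing. Rxra was at −0.08 after both libraries were scaled to a common sum, where Rxrb was at −1.08, and Rxrb was at 0.02 with the highest transcript of each gene in place of the sum. Thra was at 18.8 FPKM in mNRPCs and at 69.7 FPKM in retina, a log2 ratio of −1.84 ± 0.097. Thra held 83.1% of the thyroid hormone receptor FPKM in retina and 99.6% in mNRPCs.

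Mef2c and Mef2d are MADS box factors, found in muscle, neurons and blood vessels as well as in retina. Mef2d (chr3:88141941-88172091, plus strand), which occupies photoreceptor genes together with Crx, was the most abundant of the 10 factors in mNRPCs. It was at 13.6 FPKM there, from 480 fragments, and at 68.6 FPKM in retina, from 1874 fragments. The mNRPC level was 19.9% of the retina level (17.9% to 22.0%), with a log2 ratio of −2.25 ± 0.070. Mef2c (chr13:83504017-83667079, plus strand) was at 0.459 FPKM in mNRPCs, from 8.22 fragments, and at 6.02 FPKM in retina, 7.63% of the retina level (3.23% to 15.6%). Mef2c was within 2-fold (−0.85) with curated transcripts only and with accessions matched by version. Their log2 ratios were alike (−2.27 ± 0.21 for Mef2c), whereas the shares of the retina level had intervals that do not overlap, because the added 1 FPKM weighs more on the lower gene. Mef2a was at 15.7 and 16.5 FPKM (−0.06 ± 0.10), and Mef2b was at 0.0548 FPKM, under 3 fragments, and 1.07 FPKM. Mef2d thus made up 74.4% of the Mef2 family in retina and 45.6% in mNRPCs, and Mef2a 17.9% and 52.7%.

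The Mef2d transcripts differed in opposite directions. A predicted transcript, XM_011240032.1 in the deposited table, was at 7.85 FPKM in mNRPCs and at 2.89 FPKM in retina, 272% of the retina level (211% to 354%). Another, XM_006501089.2, was at 3.01 and 51.0 FPKM, 5.90% of the retina level (4.80% to 7.20%), and made up 74.4% of the gene in retina and 22.1% in mNRPCs. The single curated Mef2d transcript was listed at or near 0 in both libraries, so that the gene value rests wholly on predictions and Mef2d is not lower with curated transcripts only. What distinguishes these transcripts in their exons is not analysed here.

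**Figure D3:**
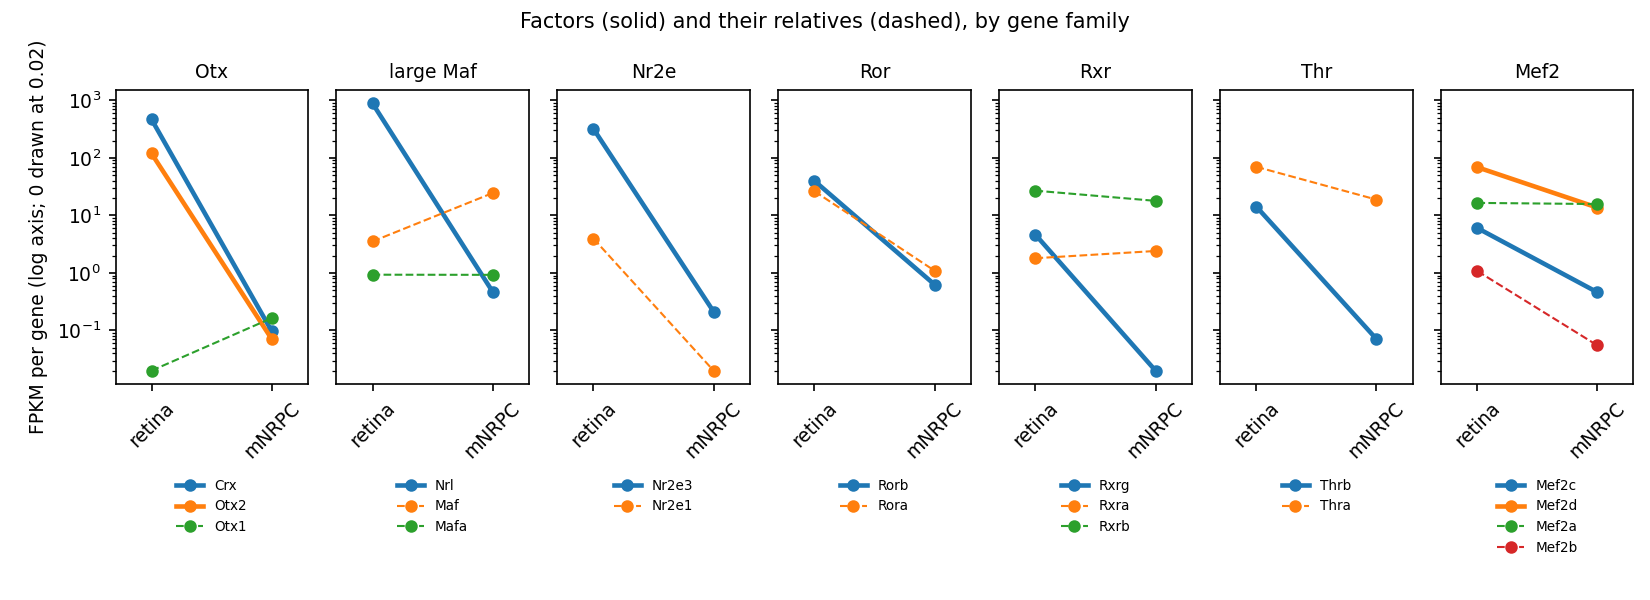
FPKM of the factors and of the relatives described here in the mNRPC and retina libraries, by gene family, on a log axis, with values listed at 0 drawn at 0.02. In retina Nrl at 885 FPKM is far above Maf at 3.52 FPKM, and in mNRPCs Maf is at 24.4 FPKM and Nrl at 0.472 FPKM.

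**Figure D4:**
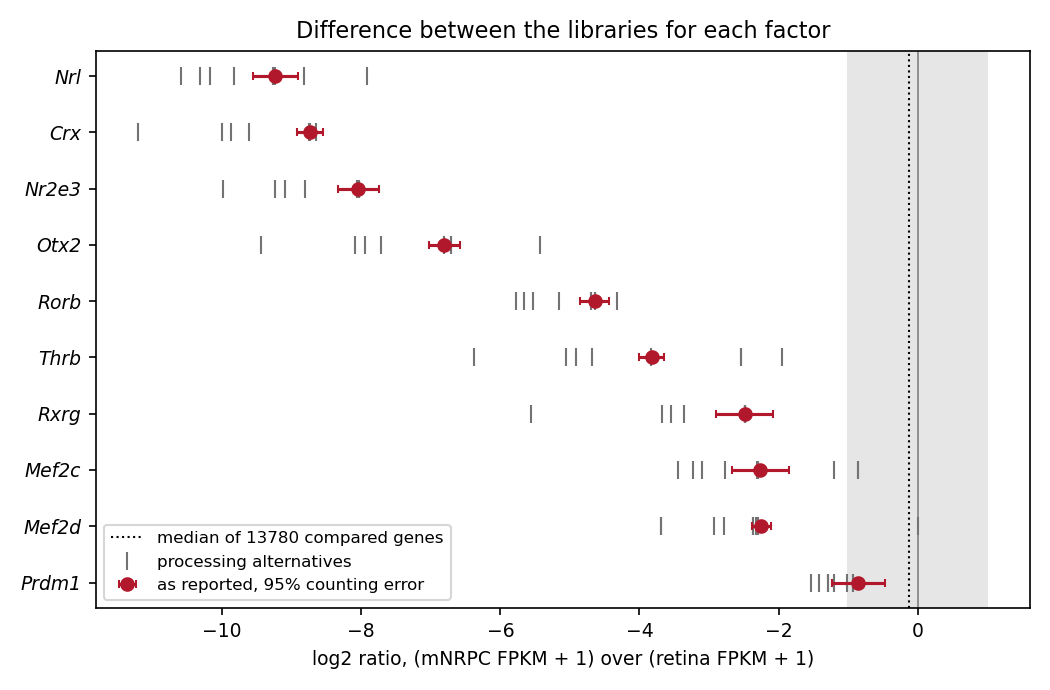
Log2 ratio of mNRPC to retina, each FPKM value plus 1, for the 10 factors with 95% counting error bars, beside grey ticks for the values under the other processing settings, with the range within 2-fold shaded and the median of all compared genes dotted. The values as deposited run from −9.23 for Nrl to −0.86 for Prdm1, and 89 of the 90 values under other settings lie below 0.

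The list of relatives of the factors held 12 genes of the Otx, large Maf, Nr2e, Ror, Rxr, Thr and Mef2 families, most of which are described above. Of these 10 passed the filter, 4 were lower, 1 (Maf) was higher and 5 were within 2-fold, with a median of −0.59 over the 12. The 4 lower ones are near the 30% of all compared genes, and with a common sum 7 were lower. Other regulators and cofactors of photoreceptor development formed a list of 34 genes, of which 26 passed the filter, 16 were lower, 6 were higher and 4 were within 2-fold, with a median of −0.96 over the 34. Among the lower ones, Neurod1, a basic helix-loop-helix factor of photoreceptor survival, had 263 FPKM in retina and was listed at 0 in mNRPCs. Samd7 and Samd11, Polycomb proteins of rods, had 51.9 and 158 FPKM in retina and were listed at or near 0 in mNRPCs. Esrrb, an estrogen-related receptor of rods, was at 0.0650 and 114 FPKM, and Casz1, a zinc finger factor that favours rods, at 0.0752 and 35.4 FPKM. Nr1d1, a clock receptor that acts with Nr2e3, was at 6.20 FPKM in mNRPCs and at 77.7 FPKM in retina, and Tbx2, which favours short-wavelength cones, at 4.79 and 23.0 FPKM. Neurod4 (0.0263 and 57.3 FPKM), Vsx1 (0 and 10.6), Bhlhe23 (0 and 14.0) and Bhlhe22 (1.89 and 16.2), which serve bipolar or amacrine cells, were lower too.

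The 6 higher genes were a share of this list no larger than the 24.5% of all compared genes. Notch1, the receptor that keeps progenitors from differentiating, was at 12.6 FPKM in mNRPCs and at 3.34 FPKM in retina (log2 ratio 1.65 ± 0.10). Its target Hes1 was at 33.9 and 15.2 FPKM (1.11 ± 0.15). Nr2f1 and Nr2f2, nuclear receptors that pattern cone opsins across the retina, reached 16.1 and 20.3 FPKM in mNRPCs, against 6.17 and 6.51 FPKM in retina. Bbx, an HMG-box factor, was at 10.5 and 3.95 FPKM, and the acetyltransferase Kat2a at 19.3 and 9.07 FPKM. With both libraries scaled to a common sum, only Notch1 (1.29) and Nr2f2 (1.08) of the 6 were higher.

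Genes of rods and cones were low as well, and their dependence on the factors was not tested. All 20 rod genes and all 10 cone genes of the lists were lower in mNRPCs, with median log2 ratios of −8.81 and −6.59. The rod genes summed to 222 FPKM in mNRPCs and to 37868 FPKM in retina, and at the median gene the mNRPC level was 0.0476% of that in retina. Gnat1, the alpha subunit of rod transducin, was at 2.58 and 5072 FPKM, and its gamma subunit Gngt1 at 0.255 and 3636 FPKM. Gnb1, the beta subunit that many cells use, was at 173 and 2200 FPKM, and Reep6, a membrane protein of rods, at 20.0 and 404 FPKM. These last genes made up most of the rod sum that remained in mNRPCs. Of the cone genes, Pde6h and Gnb3 had 244 and 197 FPKM in retina and were listed at 0 in mNRPCs, Arr3 (cone arrestin) was at 0.125 and 234 FPKM, Gnat2 at 0.548 and 95.1 FPKM, and Cngb3, a subunit of the cone channel, at 0.997 and 5.29 FPKM. The cone sum was 2.11 FPKM in mNRPCs and 1161 FPKM in retina.

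**Figure D5:**
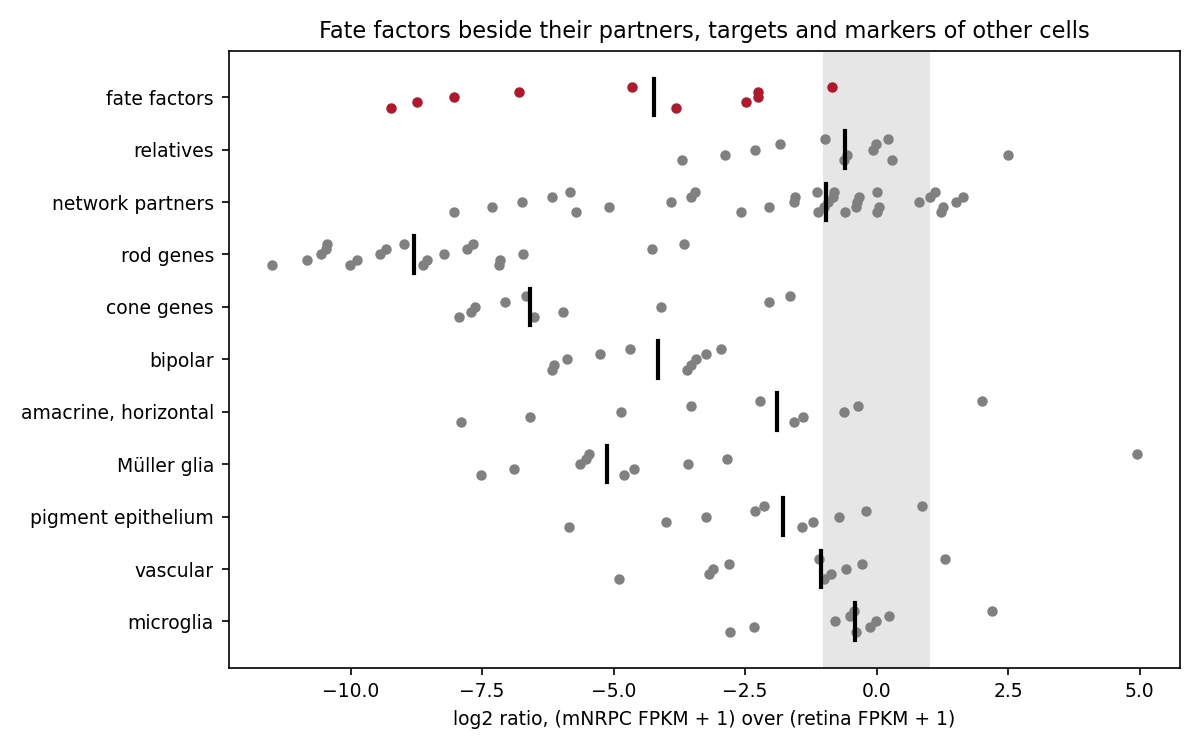
Log2 ratio of mNRPC to retina, each FPKM value plus 1, for each gene of the fate factors and of the lists of relatives, network partners, rod and cone genes and markers of other retinal cells, with 1 point per gene and a bar at the median. The median was −4.23 for the 10 fate factors, −0.59 for their relatives, −8.81 for rod genes and −6.59 for cone genes.

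Several factors are also expressed outside photoreceptors, so markers of other cells were set beside them, and their part in the factors' values was not tested. All 10 bipolar markers were lower in mNRPCs, with sums of 5.77 and 389 FPKM. Among them Scgn had 69.0 FPKM in retina and was listed at 0 in mNRPCs, Cabp5 was at 0.0399 and 60.9 FPKM, Prkca at 2.27 and 38.9 FPKM, and Isl1 at 2.25 and 29.9 FPKM. Of 10 amacrine and horizontal markers 7 were lower and 1, Tfap2a (31.3 and 7.08 FPKM), was higher, with sums of 52.3 and 457 FPKM. Calb2 was at 0.0919 and 260 FPKM, Gad1 at 0.0858 and 103 FPKM, Calb1 at 0.237 and 35.1 FPKM, and Prox1 at 10.7 and 13.8 FPKM. Of 10 Müller glia markers 9 were lower, among them Glul (31.4 and 897 FPKM), Apoe (4.21 and 618) and Rlbp1 (0.0986 and 202), and Vim, which many cultured cells express, was higher at 3138 and 101 FPKM. The sums were 3193 and 2135 FPKM, of which Vim made up most in mNRPCs and Glul and Apoe most in retina.

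Pigment epithelium, which uses Otx2, had 8 of 10 markers past the filter in either library. Of these 7 were lower (3 at a minimum of 5 FPKM), and the list summed to 9.72 and 97.4 FPKM. The 7 passed the filter through retina alone, so that they could not have been called higher. Of all compared genes 30% were lower. The defining pigment epithelium marker Rpe65 had 8.53 FPKM in retina and none listed in mNRPCs, and the same held for Dct (15.2 FPKM in retina) and Ttr (56.5). Pmel was at 0.238 and 4.50 FPKM, and Rdh5 was at 9.28 and 4.63 FPKM. The retina library thus held RNA of pigment epithelium genes beside its 119 FPKM of Otx2. Vascular markers, which bear on Mef2c, summed to 4.64 and 56.4 FPKM, with 7 of 10 past the filter and 6 of them lower. Those 6 likewise passed through retina alone. Kdr was at 0.0219 and 29.5 FPKM, Rgs5 at 0 and 8.16, Esam at 0 and 7.63, Tek at 0.0862 and 1.18, and the pericyte gene Pdgfrb, which was higher, at 4.49 and 1.24 FPKM. Of the microglia markers, which bear on Mef2c, 4 of 10 passed the filter, 2 of them lower and 1 higher. The 2 lower ones passed through retina alone. C1qa and C1qb had 4.04 and 5.89 FPKM in retina and were listed at 0 in mNRPCs, and Tmem119 was at 1.22 and 0.880 FPKM.

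The label of the cultured cells was checked against 8 progenitor genes chosen after the data were seen. Pax6, a master regulator of eye development, was at 123 FPKM in mNRPCs and at 101 FPKM in retina, Sox2 at 231 and 18.5 FPKM, Nes at 9.42 and 0.841 FPKM, Six3 at 39.7 and 33.2 FPKM and Lhx2 at 3.06 and 15.9 FPKM. Rax and Six6, which retinal progenitors also express, had 81.7 and 19.3 FPKM in retina and were listed at 0 in mNRPCs. By RT-PCR the paper reported Rax in these cells, with Nes, Six3 and Pax6, at passages on either side of this library. A value listed at 0 is therefore not taken here as absence. The library labelled as progenitor cells thus had FPKM listed for some of these genes and not for others.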

How the data were processed

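FPKM values were deposited by the authors for 106754 RefSeq transcripts in 1 library of mNRPCs and 1 of retina. The study's methods describe alignment with Bowtie 2 and estimation with eXpress, which divides shared reads among transcripts, whereas the submitters' processing notes name TopHat2 2.0.10 and GRCm38.p3, with no role given. The sequencer is named as HiSeq 2500 in the series text and as BGISEQ-500 in the study's methods. A value of 0 can be a failed estimate, so such genes are described as listed at 0.

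Accessions were matched without version to RefSeq genes of GRCm38.p6 and then to GENCODE, which gave a symbol to 74283 rows (69.6%) holding 93.2% of the mNRPC FPKM and 89.9% of the retina FPKM. Rows were summed into 31253 genes, values below 1e-06 FPKM being read as 0. Coordinates are those of RefSeq in GRCm38.p6, a patch release of the same assembly, since the deposited table carries none. Following the study, 1 was added before log2. The comparison took genes that reached 1 FPKM in either library, and a log2 ratio of at least 1 in size was counted. A gene that reached 1 FPKM in retina alone could be called lower or within 2-fold, but not higher. This held for many of the lower genes in the lists.

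Depth was estimated from 6228 rows of genes with a single row and at least 1500 bp, as the value that 1 fragment is worth. The totals came to 6.52e+06 and 5.06e+06 fragments. Rows without a length in the reference were given the median of their gene. Intervals of a ratio are exact binomial limits at 95% on the estimated fragments, and those of the level in 1 library are Poisson limits at 95%. Both cover counting error only. Without replicates no test between groups was run.

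The 10 factors, the gene lists and the alternatives were chosen with earlier results of these data known. All factors are named, and their relatives with exceptions. Of the other regulators, those at 10 FPKM or more in the higher library and past 2-fold are named, at most 12 by size, with those higher in and at or above 1 FPKM in mNRPCs. Of each other list, the 3 highest genes in retina and the 2 highest in mNRPCs are named. Some genes that meet these rules and enter list values are not reported here. Alternatives covered the pseudocount, the filter, the threshold, scaling, and the choice of rows. Python 3.11.15, pandas 2.3.3, numpy 2.4.6, scipy 1.17.1 and matplotlib 3.10.9 were used.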

Additional observations from a re-analysis of the deposited data

How the results depend on the processing

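The count of lower factors was between 8 and 10 over 12 alternatives, and none was higher in any of them. Their median log2 ratio lay between −6.08 and −3.59, and its distance from the all-gene median was −4.11 as deposited and −4.54 after scaling to a common sum. Of 90 alternative values of single factors 89 stayed below 0. The exception was Mef2d with curated rows only, at 9.1e-06, where its single curated transcript is near 0 in both libraries. The lowest and highest values were −11.21 and −8.65 for Crx, −10.60 and −7.92 for Nrl, −9.99 and −8.03 for Nr2e3, −9.44 and −5.43 for Otx2, −5.78 and −4.32 for Rorb, −6.38 and −1.95 for Thrb, −5.56 and −2.48 for Rxrg, −3.45 and −0.85 for Mef2c, −3.70 and 9.1e-06 for Mef2d, and −1.54 and −0.86 for Prdm1. Mef2c was within 2-fold at −0.85 both when accessions were matched by version and when predicted rows were left out. Over all genes 4130 were lower and 3371 higher as deposited, 6349 and 2751 after scaling to a common sum, 6830 and 2559 when that sum left out rod and cone genes, and 1942 and 1547 at a log2 threshold of 2. The median of all genes moved from −0.12 to −0.68 with the common sum and to −0.82 without rod and cone genes. With the common sum 7 relatives were lower instead of 4. Higher network genes went from 6 to 2 with the common sum, to 1 without rod and cone genes and to 0 at a threshold of 2, and lower pigment epithelium markers from 7 to 3 at a minimum of 5 FPKM. Lower microglia markers went from 2 to 4 with the sum without rod and cone genes and to 1 at that minimum. The 1 higher gene of the vascular and of the amacrine and horizontal list was lost in 4 and 1 of the settings. The estimated depth was 6.49e+06 to 6.57e+06 fragments for mNRPCs and 4.95e+06 to 5.68e+06 for retina with other minimum lengths, and 5 factors were at or under 3 fragments in each case. At such levels neither library can separate a low value from 0. No paired analysis was possible because the groups held a single library each.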
